A study of Mus musculus with 26 samples.

Results

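The genes described here are the MHC class I genes of the mouse and the genes that supply them with peptides, 42 of the 55291 genes in the count table. They were chosen by gene symbol: every symbol beginning with H2-D, H2-K, H2-M, H2-Q or H2-T, plus B2m, Tap1, Tap2, Tapbp, Nlrc5, Psmb8 and Psmb9. No measured value decided which symbols were included, but the group was chosen with earlier results of these data known. The prefixes also caught 4 genes that are not of class I. These were H2-DMa, H2-DMb1 and H2-DMb2, which exchange peptides on class II molecules, and H2-Ke6, a metabolic enzyme that is also called Hsd17b8. Of the 42 genes, 27 had enough reads to be tested and the other 15 are given as counts.

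The libraries came from R1 mouse embryonic stem cells (ESCs), sequenced as poly(A) RNA in 26 libraries that form 13 groups of 2. The study asked how DUX, a transcription factor of the early embryo that switches on a program resembling the 2-cell stage, acts through condensates and through a super-enhancer at the Tdpoz locus. All cells were kept on gelatin with LIF. 2 groups were controls, untreated ESC and DMSO, the solvent control. 5 groups received an inducer in unmodified or transgenic cells: retinoic acid (RA, 0.53 µM for 48 h), the splicing inhibitor pladienolide B (PlaB, 4 nM for 4 days), and doxycycline at 4 µg/mL for 24 h to express Zscan4 (Zscan4 OE), Dux (Dux OE) or DuxR70A (DuxR70A OE), a Dux mutant that the study describes as deficient in forming condensates. In 3 groups Dux was knocked down by shRNA (Dux KD RA, Dux KD PlaB, Dux KD Zscan4 OE), and in 3 the super-enhancer was deleted with Cas9 (SE KO RA, SE KO PlaB and SE KO Dux OE), each under the same inducer as its control. For Dux KD Zscan4 OE the labels give neither a treatment nor a time. The sources used here do not say whether SE KO is 1 clone, which shRNA was used, or how long DMSO was given. The genotype label of SE KO RA replicate 1 reads wild type against its title, and it was grouped by title.

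MHC class I molecules carry short peptides from inside the cell to its surface, where T cells and natural killer cells read them. A heavy chain (in the mouse the classical H2-K and H2-D and the nonclassical Q, T and M genes) pairs with beta-2 microglobulin, the product of B2m. Peptides are cut by the proteasome, in which Psmb8 and Psmb9 can replace constitutive subunits, pumped into the endoplasmic reticulum by the TAP1 and TAP2 transporter, and loaded with the help of tapasin (Tapbp). NLRC5 is the main transactivator of the family, and interferons raise many of its genes. ESCs are known for low surface MHC class I.

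All of these genes but B2m (chromosome 2, 122147686 to 122153083) and Nlrc5 (chromosome 8, 94434356 to 94527272) lie on chromosome 17, between Tapbp at 33915899 and H2-M2 at 37483552 in the coordinates of the deposited table (mm10). The promoter stretches below are shown because the heavy chains and B2m share known elements upstream of the start site, and because H2-M5, which went against the other genes in several comparisons, held none of the motifs searched. The window of Psmb8 and 1 of 2 windows of H2-DMa held none of them either. A link between these motifs and the direction of H2-M5 was not tested. Each stretch has 140 bases, read 5′ to 3′ on the gene's strand from RefSeq promoter windows of GRCm38.p6, and capitals mark motif matches.
H2-K1: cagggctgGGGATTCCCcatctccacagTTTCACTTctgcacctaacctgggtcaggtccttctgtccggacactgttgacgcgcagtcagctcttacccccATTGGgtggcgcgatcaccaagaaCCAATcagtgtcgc
H2-D1: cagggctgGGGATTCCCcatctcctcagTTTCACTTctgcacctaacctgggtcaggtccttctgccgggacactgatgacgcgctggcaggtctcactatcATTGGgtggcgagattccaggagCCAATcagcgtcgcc
H2-Q7: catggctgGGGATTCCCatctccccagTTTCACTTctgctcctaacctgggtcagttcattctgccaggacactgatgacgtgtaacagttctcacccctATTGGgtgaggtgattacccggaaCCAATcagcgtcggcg
H2-Q6: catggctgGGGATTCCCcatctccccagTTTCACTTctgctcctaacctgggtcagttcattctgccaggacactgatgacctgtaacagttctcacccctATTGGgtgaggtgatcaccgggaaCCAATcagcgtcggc
H2-Q4: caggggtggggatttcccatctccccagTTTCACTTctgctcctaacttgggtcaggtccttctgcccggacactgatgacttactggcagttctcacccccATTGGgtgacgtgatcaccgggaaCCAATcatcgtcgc
B2m: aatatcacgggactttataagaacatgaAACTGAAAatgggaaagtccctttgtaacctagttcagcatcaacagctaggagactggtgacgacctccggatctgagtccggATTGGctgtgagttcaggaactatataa
H2-M5: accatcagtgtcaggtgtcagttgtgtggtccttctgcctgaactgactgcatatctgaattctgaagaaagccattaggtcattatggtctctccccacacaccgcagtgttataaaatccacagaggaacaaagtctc

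These are chr17:34000326-34000465 on the minus strand for H2-K1, chr17:35262916-35263055 on the plus strand for H2-D1, chr17:35439015-35439154 on the plus strand for H2-Q7, chr17:35424670-35424809 on the plus strand for H2-Q6, chr17:35379436-35379575 on the plus strand for H2-Q4, chr2:122147522-122147661 on the plus strand for B2m and chr17:36989534-36989673 on the minus strand for H2-M5. The motifs were searched on both strands. They were AANNGAAA, a core of the interferon-stimulated response element, ATTGG, the CCAAT box read in reverse, GGGATTCCC, the NF-kB site of the class I enhancer, and TGATTNAAT, a core of the Dux site. Windows of 300 bases were found for 32 of the 42 genes (35 windows). The response-element core lay in 19 of these 35 windows (54.3%) against 23.9% of all 32851 promoter windows of that length. ATTGG lay in 30 (85.7%) against 37.4%. GGGATTCCC lay in 5 (14.3%), those of H2-D1, H2-K1, H2-Q6 and H2-Q7, against 0.353%. The Dux core lay in 0 of the 35 windows against 0.718% of all. These matches are a description of the letters in the windows and not of factor binding.

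Total counts ran from 14401452 to 39402840 per library (median 18276934), and the 42 genes took between 0.00719% (Dux OE replicate 1) and 0.0404% (SE KO RA replicate 2) of them. Levels are CPM (counts scaled to library size) after TMM scaling. A count of 3, taken as the floor, equals 0.0796 to 0.226 CPM depending on the library. All 8 ESC markers lay above the floor in every group. The pan-leukocyte marker Ptprc did not exceed 0.136 CPM in any library, while the summed hematopoietic list ran from 9.85 to 31.7 CPM, mostly Cd68. Duxf3, the Dux row of the table, had 49 and 59 counts in RA against 16 and 6 with Dux KD, 191 and 181 in PlaB against 1 and 0, and 27 and 17 in Zscan4 OE against 1 and 0. Duxf3 was also lower with SE KO, at 2 and 10 counts in SE KO RA and 38 and 45 in SE KO PlaB. It had 55 and 48 counts in Dux OE (4.01 and 3.24 CPM). The deeper SE KO Dux OE libraries had 55 and 39 counts, a lower level (1.46 and 1.28 CPM). The part of these Dux levels in the results below was not tested. Both DuxR70A OE libraries had 0 counts of Duxf3, and why it read 0 there was not tested, so this row does not check that transgene. Markers of differentiated cells differed between groups: a fibroblast list summed to 145 to 158 CPM in SE KO RA and 107 to 122 CPM in RA, and a trophectoderm list to 461 to 480 CPM in PlaB and 170 to 278 CPM in SE KO PlaB. Fewer cells of a type and less RNA per cell cannot be told apart in these bulk libraries, and the part of such cells in the results below was not tested.

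Several of these genes are close copies. Of the 50-base stretches of their transcripts, 53.5% were shared with another gene for H2-T22, 50.4% for H2-T10, 36.4% for H2-Q4 and H2-Q5, 35% for H2-Q6 and 26.5% for H2-Q7, against 12.8% for H2-D1, 9.63% for H2-K1 and 0% for B2m. How reads with more than 1 match were counted is not given in the sources used here, so values of single Q and T genes are uncertain in that respect. Tap1 and Psmb9 overlap each other, B2m overlaps Patl2 and H2-DMa overlaps Brd2, and the strand setting of the counting is not given either.

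Per transcript length, B2m was the most abundant of these genes, with a mean of 21.4 RPKM (CPM per kilobase of transcript) over the 26 libraries. It was followed by H2-M5 at 12.1 RPKM, H2-D1 at 8.33 RPKM, the pseudogene H2-M6-ps at 8.17 RPKM and H2-K1 at 7.58 RPKM. Tapbp had 3.78 RPKM, H2-Q7 2.12 RPKM, Tap1 1.59 RPKM and Psmb8 0.0519 RPKM. Among the 27 tested genes the highest mean CPM fell in SE KO RA for 14, in PlaB for 11, in RA for H2-T10 and in Dux KD Zscan4 OE for H2-M5. The lowest fell in DMSO for 7, in ESC for 5 and in Dux KD Zscan4 OE for 5, with ties credited to ESC or DMSO. Such ties at 0 counts with other groups held for H2-Q1, H2-T10 and Psmb8 in DMSO and for H2-Q5 in ESC.

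**Figure D1:**
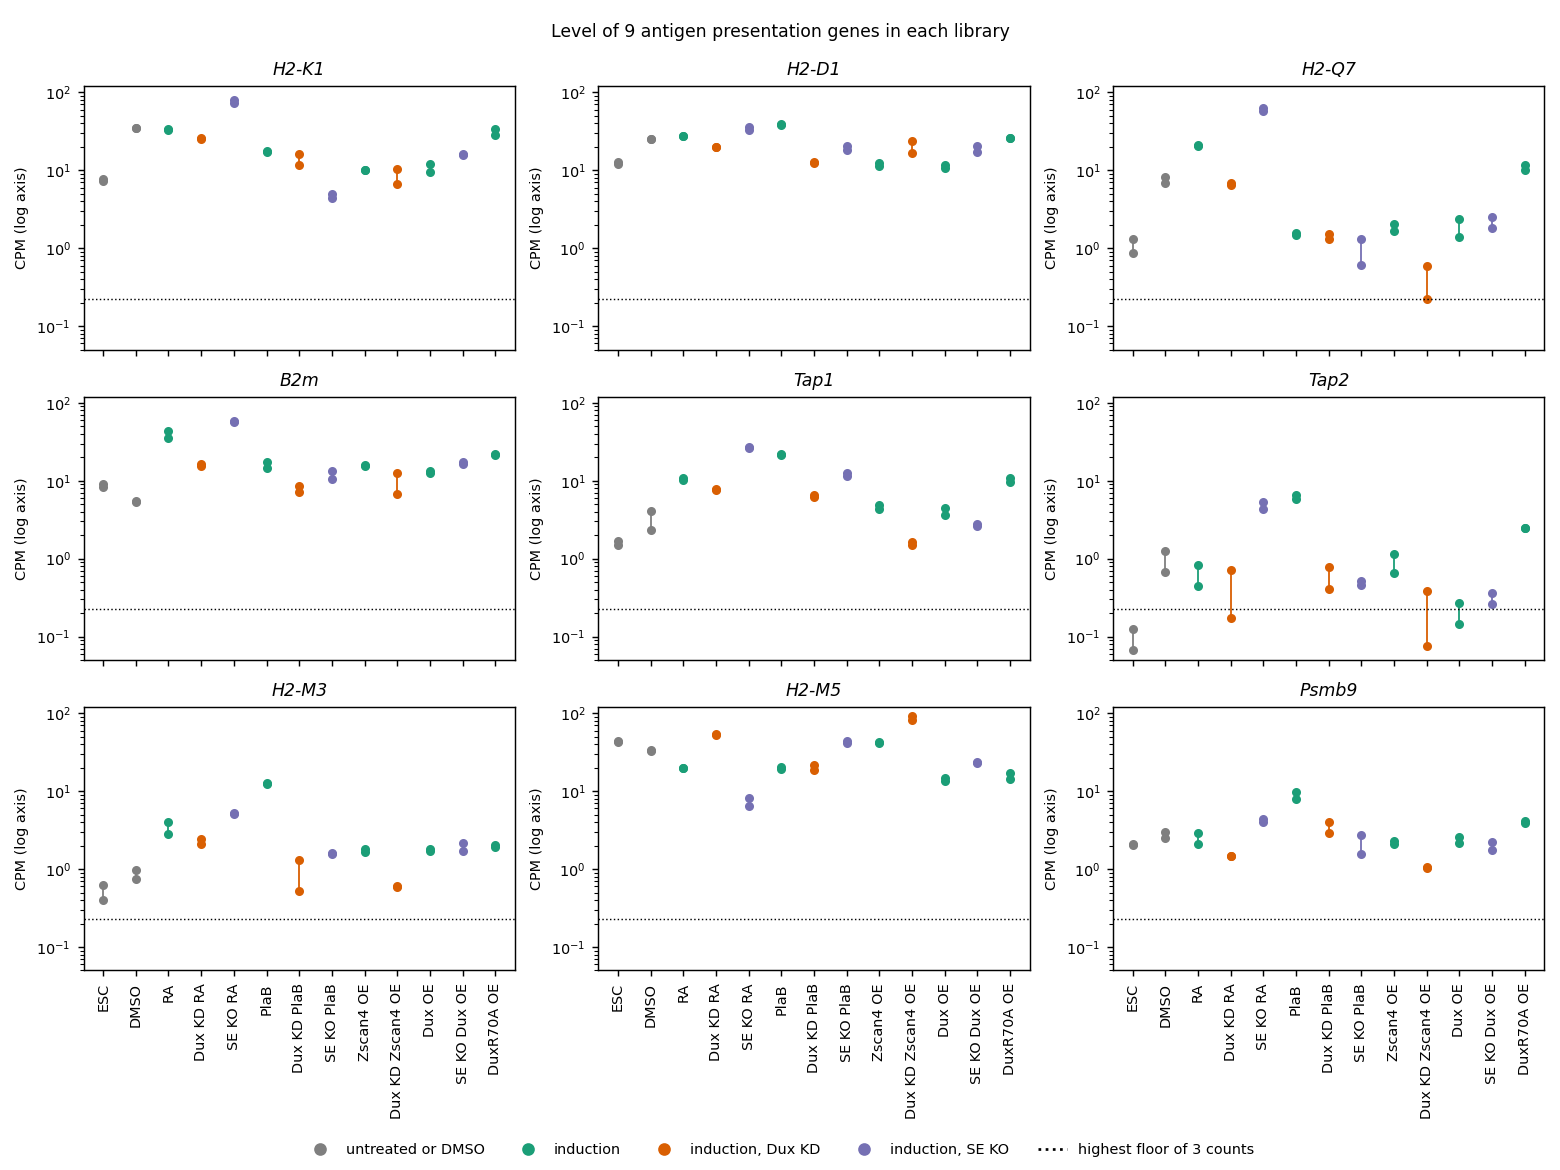
CPM (log axis) of 9 genes in each of the 26 libraries, with the groups on the x axis, 1 point per library and a line joining the 2 libraries of a group; the dotted line is the highest floor, 0.226 CPM. H2-K1 stood at 73.1 and 78.8 CPM in SE KO RA and at 4.47 and 5.04 CPM in SE KO PlaB, whereas H2-M5 was at its lowest in SE KO RA (8.28 and 6.52 CPM).

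The controls themselves differed, which matters for every comparison that uses one of them. H2-K1, a classical heavy chain, was at 7.72 and 7.2 CPM in ESC and at 35.1 and 34.5 CPM in DMSO, 4.66-fold higher (log2 fold change 2.22, SE 0.16, adjusted p = 2.1e-11). H2-D1, the other classical heavy chain of these cells, was at 12.7 and 11.9 CPM in ESC and at 25.5 and 25 CPM in DMSO (log2 fold change 1.03, adjusted p = 5.4e-07). The nonclassical H2-Q7 was at 0.872 and 1.33 CPM in ESC and at 8.23 and 6.8 CPM in DMSO (log2 fold change 2.77, adjusted p = 6.5e-09). In none of these did the libraries of the groups overlap. Such separation of 2 against 2 libraries is given only as a description, here and below. Its share over all tested genes was not counted. B2m went the other way without being called, from 8.97 and 8.2 to 5.28 and 5.43 CPM (log2 fold change -0.68, adjusted p = 0.00777), and Nlrc5 fell by 1.65 on the log2 scale (1.37 and 1.47 against 0.454 and 0.439 CPM, adjusted p = 5.7e-04). Here and below, a gene was called where edgeR's quasi-likelihood F-test with Benjamini-Hochberg adjustment over all 20953 tested genes gave an adjusted p under 0.05 and the log2 fold change was at least 1 in size. Between DMSO and ESC, 12 of the 27 tested genes were called higher and 1 lower, where 8.32% of all tested genes were called higher and 7.91% lower. Their median log2 fold change was 0.74, or 0.90 with genes that had no counts in a group set at their bound, against -0.04 over all tested genes. Tap1 lost its call without DMSO replicate 2 (0.56, adjusted p = 0.15) or ESC replicate 1 (0.94), H2-D1 without ESC replicate 2 (0.99), H2-K2 without DMSO replicate 1 (1.17, adjusted p = 0.232) or ESC replicate 2 (1.93, adjusted p = 0.0574), and H2-Q5 without DMSO replicate 1 or either ESC library (adjusted p 0.0853 to 0.11). Such counts are given as a description throughout, because a gene that entered the test through the 1 group in which it is high had to differ somewhere.

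RA and PlaB were both compared with DMSO and share those control libraries. They answer whether an inducer of the 2-cell-like program changed these genes. Against DMSO, the light chain and some nonclassical heavy chains were higher in RA while the classical heavy chains were not. B2m was at 34.9 and 43.7 CPM in RA and at 5.28 and 5.43 CPM in DMSO, 7.33-fold higher (log2 fold change 2.87, SE 0.18, adjusted p = 2.8e-13). H2-K1 was at 33.7 and 33.3 CPM against 35.1 and 34.5 CPM (log2 fold change -0.05, SE 0.14, adjusted p = 0.763). H2-D1 was at 27.8 and 27.7 CPM against 25.5 and 25 CPM (log2 fold change 0.14, adjusted p = 0.353). Neither classical heavy chain was called against DMSO. In ESC both lay lower than in RA, H2-K1 at 7.72 and 7.2 CPM and H2-D1 at 12.7 and 11.9 CPM. Against ESC, which is not the matched control, 18 genes were called higher and 2 lower in RA, so the count depends on the control. The share of all tested genes called with the other control was not calculated, here or below. Such counts therefore stand without that background.

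Among the nonclassical genes in RA, H2-T22, whose product is a ligand of some gamma-delta T cells, was at 5.11 and 5.73 CPM against 0.737 and 1.15 CPM in DMSO (log2 fold change 2.51, SE 0.35, adjusted p = 8.4e-07). H2-M3, which presents N-formylated peptides such as those of bacteria and mitochondria, was at 4.05 and 2.79 CPM against 0.737 and 0.987 CPM (log2 fold change 1.98, adjusted p = 2.6e-06). H2-Q6 was at 5.64 and 6.29 CPM against 1.65 and 1.43 CPM (log2 fold change 1.95, adjusted p = 2.0e-07), and H2-Q7 rose by 1.46 (adjusted p = 1.3e-07). The libraries of the 2 groups did not overlap for any of these. In the loading machinery Tap1 rose, from 2.33 and 4.06 CPM to 10.2 and 10.8 CPM (log2 fold change 1.71, adjusted p = 3.9e-09). Its partner Tap2 had 0.441 and 0.838 CPM against 0.681 and 1.26 CPM (log2 fold change -0.61, adjusted p = 0.279), and Tapbp 14.3 and 13.6 against 13.4 and 12.4 CPM (log2 fold change 0.11). Tap2 was lower in ESC, at 0.125 and 0.0667 CPM. The transactivator Nlrc5 rose by 1.81 against DMSO (SE 0.35, adjusted p = 6.4e-05). Against ESC, where it stood at 1.37 and 1.47 CPM, this call was lost (0.16, adjusted p = 0.663).

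Some genes had no counts in either DMSO library, so only a lower bound, set against 3 counts per library, can be given for them. H2-T10, a close copy of H2-T22, had 22 and 18 counts in RA and was at least 5.4-fold higher (adjusted p = 5.7e-04). The immunoproteasome subunit Psmb8 had 16 and 9 counts and was at least 3.36-fold higher (adjusted p = 0.00102). H2-Q1 had 12 and 7 counts and was at least 2.55-fold higher (adjusted p = 0.00283). For the pseudogene H2-T-ps, 25 and 11 counts in RA stood against 0 and 1 in DMSO, a ratio of 29.2 (95% exact interval 4.92 to 1190, adjusted p = 2.8e-04). Such intervals cover counting error only. H2-M6-ps fell by 1.05 (2.51 and 3.17 against 5.79 and 5.92 CPM, adjusted p = 7.6e-04) and was called lower. That call was lost with library size alone (-0.85) and without RA replicate 1 (-0.89). In all, 11 of 27 were called higher and 1 lower in RA, where 20.6% of all tested genes were called higher and 10.4% lower. The median was 0.79 against 0.10 over all tested genes.

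In PlaB the loading machinery, H2-M3 and Nlrc5 were higher than in DMSO, while H2-K1 and several Q genes were lower. Marker lists of other states moved as well. The 2-cell-like list summed to 7180 to 7250 CPM in PlaB and 3.07 to 5.16 CPM in DMSO, the trophectoderm list to 461 to 480 against 97.7 to 99 CPM, with all 6 markers over the floor, and the endothelial list to 318 to 319 against 114 to 117 CPM, with 3 of 4 over it. Their part in the result was not tested. Tap1 was at 21.7 and 21.9 CPM against 2.33 and 4.06 CPM (log2 fold change 2.77, SE 0.17, adjusted p = 3.0e-14). Tap2 was at 6.54 and 5.76 CPM against 0.681 and 1.26 CPM (log2 fold change 2.65, SE 0.38, adjusted p = 4.6e-07). Tapbp rose by 1.07 (adjusted p = 5.6e-08). The Tapbp call was lost without the filter on low counts (0.90). The immunoproteasome subunit Psmb9 rose by 1.67 (7.94 and 9.67 against 3.01 and 2.52 CPM, adjusted p = 3.5e-07), Nlrc5 by 3.17 (3.78 and 4.36 against 0.454 and 0.439 CPM, adjusted p = 7.3e-10) and B2m by 1.57 (14.6 and 17.2 against 5.28 and 5.43 CPM, adjusted p = 2.4e-08). H2-M3 reached 12.6 and 12.4 CPM, 14.4-fold above DMSO (log2 fold change 3.85, adjusted p = 9.2e-13).

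The heavy chains were divided in PlaB. H2-D1 was at 39.3 and 38.7 CPM (log2 fold change 0.63, adjusted p = 5.2e-05, under the size for a call). H2-K1 was at 17.1 and 17.5 CPM, lower by 1.01 on the log2 scale (adjusted p = 3.7e-07). That call was lost under other scalings (-0.85 with DESeq2's size factors in edgeR, -0.75 with library size alone) and without DMSO replicate 1 or PlaB replicate 1 (-1.0 and -0.99). H2-Q7 fell by 2.28, from 8.23 and 6.8 CPM in DMSO to 1.5 and 1.59 CPM (adjusted p = 2.8e-09). H2-Q2 fell by 3.37 (0.194 and 0.136 against 2.04 and 1.48 CPM, adjusted p = 1.0e-06), and H2-Q4 by 1.64 (adjusted p = 1.4e-06). H2-Q6 differed little from DMSO (1.6 and 2.18 against 1.65 and 1.43 CPM, adjusted p = 0.332), as did H2-T22 (adjusted p = 0.471). The secreted H2-Q10 fell by 1.16 (adjusted p = 0.00369). That call was lost with library size alone (-0.91) and without DMSO replicate 2 (-0.92, adjusted p = 0.0585). These drops depended on the control. With ESC in its place, H2-K1 (1.21, adjusted p = 1.93e-07), H2-Q2 (1.27), H2-Q7 (0.49) and H2-Q10 (0.79) turned direction, of which only H2-K1 passed the test and the size for a call, and H2-Q4 stood at -0.06.

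PlaB also held reads of genes with at most 1 count in either DMSO library. Of the 3 given here, H2-Q1 and H2-T10 had counts in RA too (12 and 7, and 22 and 18). H2-T24 had 106 and 81 counts in PlaB, 1 and 0 in DMSO, and at most 18 in any library outside PlaB (ratio to DMSO 157, 95% exact interval 27.8 to 6230, adjusted p = 6.2e-07). H2-Q1 had 26 and 37 counts and was at least 8.77-fold above DMSO (adjusted p = 1.5e-05). H2-T10 had 13 counts in PlaB replicate 1 but 1 in replicate 2, and its call (at least 2.02-fold, adjusted p = 0.00997) was lost without PlaB replicate 1 (adjusted p = 0.294) or DMSO replicate 2 (adjusted p = 0.0521). Of the genes caught by the prefix, H2-DMa rose by 1.73 (15.2 and 13.8 against 4.6 and 4.11 CPM) and H2-DMb1 by 2.49 (adjusted p = 1.1e-04). In all, 15 of 27 were called higher and 5 lower, where 32.3% of all tested genes were called higher and 26.6% lower. The median was 1.57 against 0.22 over all tested genes. It was 1.23 without 1 gene at the floor in both groups and with 2 zero-count genes at their bound. Against ESC, 16 were called higher and 1 lower, and B2m fell under the size for a call (0.89). The all-gene median was 0.38 with DESeq2's size factors and 0.48 with library size alone, so the size of a change in PlaB depends on the scaling.

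**Figure D2:**
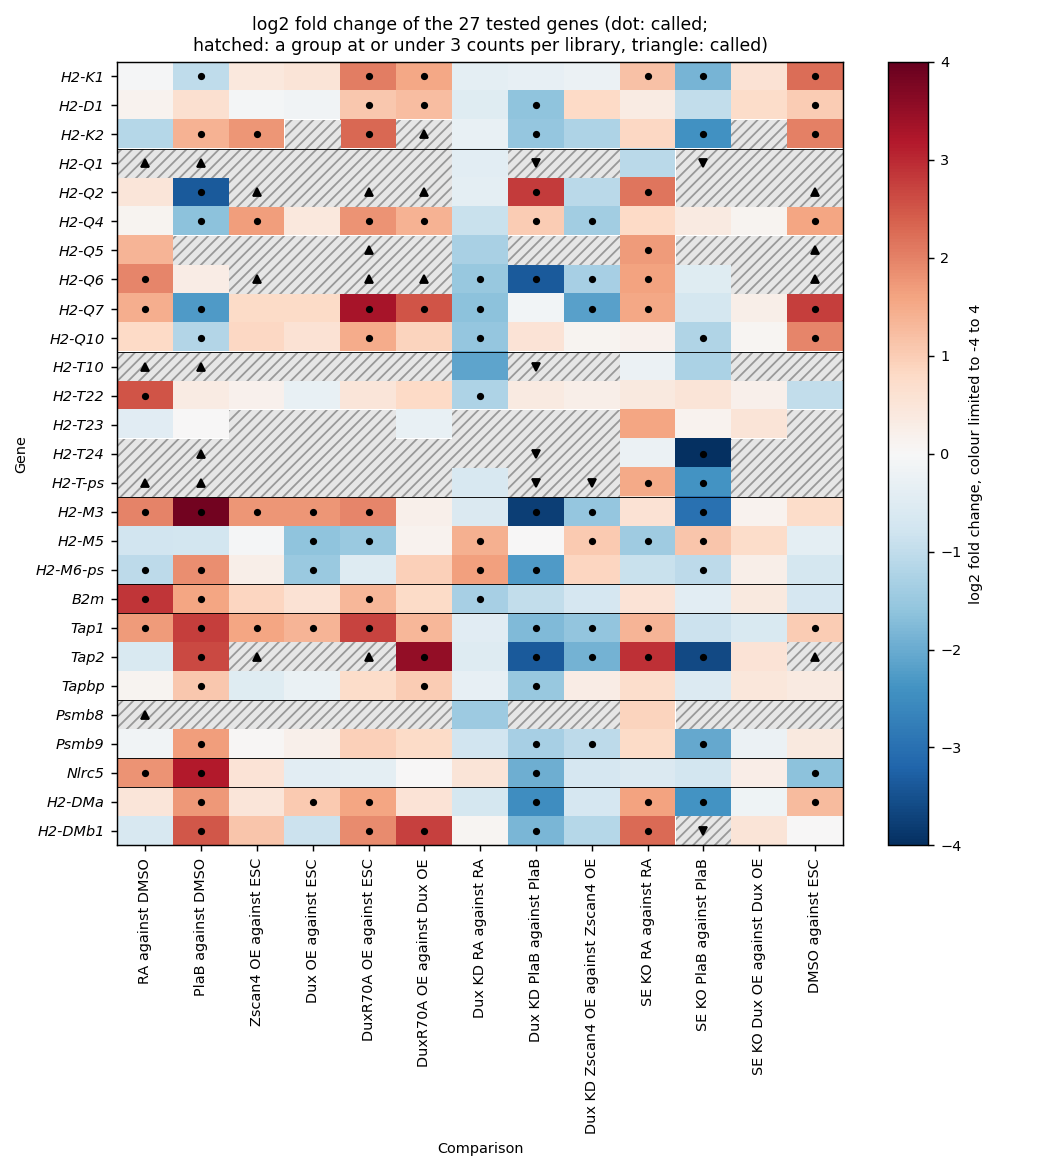
Colours give the log2 fold change of each of the 27 tested genes (rows, grouped by role) in each of 13 comparisons (columns), limited to -4 to 4, with a dot for a called gene. Hatched cells had a group at or under 3 counts in both libraries and carry no fold, with an upward or downward triangle for a gene called higher or lower; Tap1 was called higher in 8 columns and lower in 2, and no gene was called in SE KO Dux OE against Dux OE.

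Overexpression of Zscan4, Dux and DuxR70A was compared with untreated ESC, whose libraries all these comparisons share. The labels give no doxycycline for ESC. With Zscan4 OE, the transporter and a few nonclassical genes were higher. Tap1 was at 4.4 and 4.94 CPM against 1.49 and 1.67 CPM (log2 fold change 1.57, SE 0.23, adjusted p = 3.9e-06). Tap2 had 31 counts in the 2 libraries against 3 in ESC (ratio 9.48, 95% exact interval 2.96 to 48.4, adjusted p = 0.00153). H2-M3 rose by 1.75 (1.68 and 1.79 against 0.623 and 0.4 CPM, adjusted p = 6.5e-04) and H2-Q4 by 1.66 (4.98 and 5.21 against 1.37 and 1.87 CPM, adjusted p = 1.2e-05). The pair H2-Q2 and H2-Q6 had ratios of 13.8 (interval 3.49 to 119) and 11 (interval 2.73 to 96.1), each against 2 counts in ESC. H2-K1 (9.97 and 10.2 CPM, adjusted p = 0.0513), H2-D1 (11.2 and 12.3 CPM, adjusted p = 0.755) and Psmb9 (adjusted p = 0.909) were not called. B2m was higher by 0.87 (15.4 and 16.1 against 8.97 and 8.2 CPM, adjusted p = 3.6e-04), under the size for a call. The call of H2-K2, a pseudogene, was lost without Zscan4 OE replicate 1 (1.15, adjusted p = 0.28), ESC replicate 1 (adjusted p = 0.102) or ESC replicate 2 (adjusted p = 0.131). In all, 7 of 27 were called higher and 0 lower, where 7.25% of all tested genes were called higher and 4.39% lower. The median was 1.12, or 1.0 with zero-count genes at their bound, against 0.00. At an unadjusted p under 0.05 by edgeR 1 gene was lower, Tapbp (-0.49, adjusted p = 0.0132), and DESeq2 called 0 lower. With DMSO as the control, 4 were called higher and 5 lower. Of the 7 genes called against ESC, H2-Q2 (-0.99), H2-Q6 (-1.11), Tap2 (-0.10) and H2-K2 (-0.28) then turned direction, and H2-Q4 (0.08) and Tap1 (0.55) lost their call.

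With Dux OE, few of these genes changed. H2-M3 rose by 1.76 (1.82 and 1.69 against 0.623 and 0.4 CPM, adjusted p = 0.0012) and Tap1 by 1.37 (3.65 and 4.53 against 1.49 and 1.67 CPM, adjusted p = 6.6e-05). H2-M5 fell from 44.7 and 43.2 CPM to 14.9 and 13.7 CPM (log2 fold change -1.62, SE 0.11, adjusted p = 9.7e-12). H2-M6-ps fell with it, by 1.47 (adjusted p = 5.8e-05). H2-DMa was called higher (log2 fold change 1.04), but not without Dux OE replicate 1 (0.94, adjusted p = 0.0522) or ESC replicate 2 (0.67, adjusted p = 0.141). Tap2 stayed near the floor, at 0.146 and 0.27 CPM against 0.125 and 0.0667 CPM (adjusted p = 0.507). H2-K1 (9.41 and 12 CPM, log2 fold change 0.52, adjusted p = 0.0261), B2m (12.4 and 13.4 CPM, 0.59, adjusted p = 0.0207) and H2-D1 (10.8 and 11.8 CPM, -0.13) were not called. In all, 3 of 27 were called higher and 2 lower, where 7.38% of all tested genes were called higher and 2.12% lower. The median was 0.59, or 0.41 with zero-count genes at their bound, against 0.00. With DMSO as the control, 3 were called higher and 10 lower, H2-DMa turned direction (-0.21), and Tap1 (0.36) and H2-M6-ps (-0.77) lost their call.

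With DuxR70A OE, both classical heavy chains and B2m were higher than in ESC. The markers of the 2-cell-like state summed to 0.502 to 0.537 CPM, below the 19.6 to 22.9 CPM of ESC and the 3270 to 3370 CPM of Dux OE, and their part in the result was not tested. H2-K1 was at 33.6 and 28.6 CPM against 7.72 and 7.2 CPM (log2 fold change 2.06, SE 0.16, adjusted p = 7.7e-11). H2-D1 was at 26.3 and 26.3 CPM against 12.7 and 11.9 CPM (log2 fold change 1.09, adjusted p = 2.0e-07). B2m was at 22.3 and 21.1 CPM against 8.97 and 8.2 CPM (log2 fold change 1.34, adjusted p = 6.8e-07). The libraries did not overlap for any of the 3. H2-Q7 rose by 3.31 (10 and 11.8 against 0.872 and 1.33 CPM, adjusted p = 1.5e-10) and Tap1 by 2.70 (10.9 and 9.67 against 1.49 and 1.67 CPM, adjusted p = 6.8e-11). Tap2 had 86 counts against 3 (ratio 25.8, 95% exact interval 8.53 to 127), H2-Q2 102 against 2 (45.8, interval 12.4 to 384) and H2-Q6 58 against 2 (26.1, interval 6.9 to 220). H2-Q4, H2-Q10, H2-M3, H2-DMa, H2-DMb1 and H2-K2 were also called higher, H2-DMb1 not without DuxR70A OE replicate 1 (1.60, adjusted p = 0.0725) or ESC replicate 1 (1.61, adjusted p = 0.0838). H2-Q5 was called from 4 and 4 counts against 0 and 0 (at least 1.2-fold, adjusted p = 0.0306), a call lost without any 1 of the 4 libraries (adjusted p 0.0597 to 0.124). Psmb9 (0.95, adjusted p = 0.00456), Tapbp (0.74, adjusted p = 1.2e-04) and Nlrc5 (-0.40, adjusted p = 0.332) were not called.

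H2-M5 again went the other way, at 17.2 and 14.3 CPM against 44.7 and 43.2 CPM (log2 fold change -1.47, adjusted p = 4.4e-11). In all, 15 of 27 were called higher and 1 lower with DuxR70A OE, where 10.2% of all tested genes were called higher and 6.72% lower, and the median was 1.55 against 0.00. The levels of H2-K1, H2-D1, H2-Q7 and H2-Q4 in DuxR70A OE lay near those in DMSO (H2-Q4 5.43 and 5.9 against 4.65 and 4.99 CPM). With DMSO in place of ESC as the control, 7 genes were called higher and 1 lower, H2-K1 (-0.16), H2-Q10 (-0.48) and H2-Q5 (-0.26) turned direction, and H2-D1 (0.06), H2-Q7 (0.54), H2-Q4 (0.23), H2-Q2 (0.75), H2-Q6 (0.13), H2-DMa (0.33) and H2-K2 (0.27) lost their call.

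Set directly against Dux OE, in the same inducible design and at the same dose and time, DuxR70A OE had 11 of 27 genes called higher and 0 lower by edgeR, where 6.11% of all tested genes were called higher and 7.51% lower. At an unadjusted p under 0.05, and by DESeq2, 0 were lower as well. H2-K1 was 2.9-fold higher (log2 fold change 1.54, SE 0.15, adjusted p = 9.5e-09) and H2-D1 2.33-fold (1.22, SE 0.14, adjusted p = 7.5e-08). H2-Q7 was higher by 2.52 (adjusted p = 5.6e-09), H2-Q4 by 1.40, Tap1 by 1.33 (adjusted p = 1.4e-06) and Tap2 by 3.53 (2.47 and 2.51 against 0.146 and 0.27 CPM, adjusted p = 1.6e-05). H2-Q2 had 102 counts against 4 (ratio 21, 95% exact interval 7.97 to 78.7) and H2-Q6 58 against 4 (12, interval 4.43 to 45.4). Tapbp was at the size for a call (1.02, adjusted p = 4.4e-06) and fell under it without DuxR70A OE replicate 2 (0.88) or Dux OE replicate 1 (0.91). B2m (0.75, adjusted p = 9.5e-04), Psmb9 (0.76, adjusted p = 0.0237), H2-M3 (0.19), H2-M5 (0.15, adjusted p = 0.36) and Nlrc5 (0.02) were not called. The median was 1.02, or 0.99 with zero-count genes at their bound, against -0.01 over all tested genes.

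Knockdown of Dux was compared with cells without the knockdown under the inducer of the same name, which for Zscan4 OE were transgenic cells. The labels give no doxycycline dose or time for Dux KD Zscan4 OE. No group is labelled as carrying a control shRNA, so an effect of the vector cannot be told apart from the knockdown. In RA, B2m was at 16.3 and 15.3 CPM with Dux KD against 34.9 and 43.7 CPM, 2.49-fold lower (log2 fold change -1.32, SE 0.16, adjusted p = 3.9e-07). H2-Q7 fell by 1.64 (6.89 and 6.42 against 20.5 and 20.9 CPM, adjusted p = 1.5e-07), H2-Q6 by 1.53 (1.9 and 2.24 against 5.64 and 6.29 CPM, adjusted p = 1.7e-05), H2-Q10 by 1.54 and H2-T22 by 1.24 (2.53 and 2.06 against 5.11 and 5.73 CPM, adjusted p = 0.00259). These 5 genes were called lower. H2-M5 and H2-M6-ps rose, by 1.42 (53.8 and 52.1 against 19.6 and 19.9 CPM, adjusted p = 9.6e-11) and 1.63 (adjusted p = 6.0e-06). H2-K1 (25 and 25.7 CPM, -0.40, adjusted p = 0.0237), H2-D1 (19.8 and 19.9 CPM, -0.49, adjusted p = 0.00339), Tap1 (7.81 and 7.6 CPM, -0.44, adjusted p = 0.0294) and Psmb9 (-0.76, adjusted p = 0.0357) lay below their RA values in both libraries, under the size for a call. Psmb8, at 1 and 6 counts against 16 and 9, was not called (adjusted p = 0.174). The 2 genes called higher and 5 called lower stood beside 6.41% of all tested genes called higher and 4.53% lower. The median was -0.63 against 0.02. Without the threshold on size, 13 were called.

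In PlaB, knockdown of Dux was accompanied by lower loading genes, H2-D1 and H2-M3. The trophectoderm list summed to 126 to 134 CPM in Dux KD PlaB and 461 to 480 CPM in PlaB, the endothelial list to 141 to 147 against 318 to 319 CPM, and the 2-cell-like list to 4.95 to 5.2 against 7180 to 7250 CPM, and their part in the result was not tested. Tap1 was at 6.13 and 6.58 CPM against 21.7 and 21.9 CPM (log2 fold change -1.78, SE 0.16, adjusted p = 6.9e-11). Tap2 fell by 3.36 (0.413 and 0.778 against 6.54 and 5.76 CPM, adjusted p = 4.0e-08), Tapbp by 1.53 (9.38 and 9.33 against 26.8 and 27.4 CPM, adjusted p = 1.3e-10), and Psmb9 by 1.34 (adjusted p = 8.3e-06). H2-M3 fell 13.5-fold, to 0.531 and 1.32 CPM (log2 fold change -3.76, adjusted p = 1.8e-12). H2-D1 fell by 1.62 (12.5 and 12.9 against 39.3 and 38.7 CPM, adjusted p = 1.2e-11), and Nlrc5 by 1.96 (adjusted p = 4.5e-07). H2-K1 was not called (16 and 11.8 against 17.1 and 17.5 CPM, -0.32, adjusted p = 0.0583). B2m was at 8.67 and 7.24 against 14.6 and 17.2 CPM, a difference of -1.0 that lay just under the size for a call (adjusted p = 1.8e-05). H2-T24 had 2 counts against 187 (ratio of PlaB to Dux KD PlaB 73.7, 95% exact interval 20.1 to 613) and H2-Q1 2 against 63 (24.8, interval 6.59 to 209). The genes called higher were H2-Q2 (2.81, adjusted p = 4.4e-05) and H2-Q4 (1.02, adjusted p = 0.00111), which PlaB had lowered against DMSO. The H2-Q4 call was lost with DESeq2's size factors in edgeR (0.86), library size alone (0.82) and DESeq2 (0.87), and without Dux KD PlaB replicate 2 (0.84) or PlaB replicate 2 (0.89). Both comparisons use the PlaB libraries. H2-T10 (no counts against 13 and 1, at least 1.9-fold, adjusted p = 0.012) lost its call without PlaB replicate 1 (adjusted p = 0.31) or either Dux KD PlaB library (adjusted p = 0.059 and 0.0578). In all, 2 of 27 were called higher and 16 lower, where 26.1% of all tested genes were called higher and 28.8% lower. The median was -1.62, or -1.55 with zero-count genes at their bound, against -0.14.

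Under Zscan4 OE, knockdown of Dux left Tap1 at 1.62 and 1.51 CPM against 4.4 and 4.94 CPM (log2 fold change -1.58, SE 0.23, adjusted p = 6.8e-06). H2-M3 fell by 1.54 (0.584 and 0.602 against 1.68 and 1.79 CPM, adjusted p = 0.00259), H2-Q4 by 1.39 (adjusted p = 1.3e-04) and H2-Q7 by 2.16 (0.584 and 0.226 against 1.68 and 2.06 CPM, adjusted p = 3.4e-04). H2-M5 rose by 1.06 to 83 and 93.3 CPM, its highest level in the series (adjusted p = 7.5e-09). It fell under the size for a call without Dux KD Zscan4 OE replicate 2 (0.98), with library size alone (0.98) and without the filter on low counts (1.0). Tap2 (-1.88, adjusted p = 0.0253), H2-Q6 (-1.33, adjusted p = 0.0463), Psmb9 (-1.06, adjusted p = 0.0144) and H2-T-ps (no counts against 4 and 5, at least 1.26-fold, adjusted p = 0.0241) were called lower with all libraries. Each lost its call when 1 library was left out. For Tap2 this was Dux KD Zscan4 OE replicate 2 (-1.21, adjusted p = 0.209) or Zscan4 OE replicate 2 (-1.39, adjusted p = 0.24), for H2-Q6 either of those or Zscan4 OE replicate 1 (adjusted p 0.111 to 0.315), for Psmb9 either Dux KD Zscan4 OE library or Zscan4 OE replicate 2 (adjusted p 0.0545 to 0.0855), and for H2-T-ps any of the 4 (adjusted p 0.0521 to 0.109). H2-D1 lay higher with Dux KD, at 23.7 and 16.8 against 11.2 and 12.3 CPM (0.79, adjusted p = 6.8e-05), and was not called. The libraries of Dux KD Zscan4 OE spread widely for some genes, as for B2m at 12.7 and 6.85 CPM (-0.67, adjusted p = 0.00531). The 9 calls, 1 higher and 8 lower, stood beside 5.78% of all tested genes called higher and 5.35% lower, and fell to 5 without Zscan4 OE replicate 2 or Dux KD Zscan4 OE replicate 2. The median was -1.06, or -0.83 with zero-count genes at their bound, against 0.01.

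**Figure D3:**
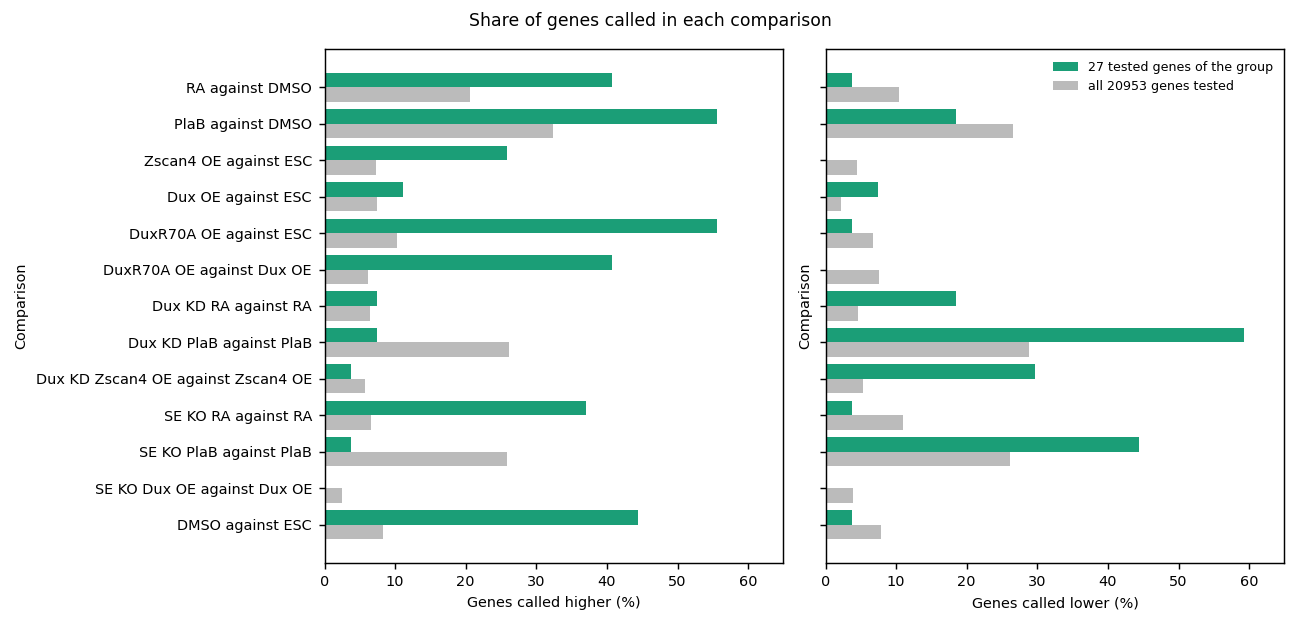
Percent of the 27 tested genes (filled) and of all 20953 tested genes called higher (left panel) and lower (right panel) in each of 13 comparisons. In DuxR70A OE against ESC 15 of the 27 were called higher beside 10.2% of all genes, and in Dux KD PlaB against PlaB 16 of the 27 were called lower beside 28.8% of all genes.

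The effect of Dux KD differed between inducers for part of these genes when the difference itself was tested. Between PlaB and RA, 5 of 27 were called higher and 12 lower, where 25.5% of all tested genes were called higher and 26.6% lower, with a median of -1.34 against -0.20. H2-D1 (-1.13, adjusted p = 4.3e-06), Tapbp (-1.20, adjusted p = 6.7e-06), Tap1 (-1.34, adjusted p = 7.6e-06) and Nlrc5 (-2.46, adjusted p = 3.5e-06) fell more with Dux KD in PlaB, H2-D1 under the size for a call without the filter on low counts (-0.96). H2-Q7 differed in the other direction (1.52, adjusted p = 9.5e-04), as its drop with Dux KD was seen in RA. B2m (0.32, adjusted p = 0.25) and H2-K1 (0.08, adjusted p = 0.739) were not called for the difference. Between Zscan4 OE and RA, 3 were called higher and 2 lower, where 6.04% of all tested genes were called higher and 6.22% lower, with a median of -0.51 against -0.03. These were H2-Q10, H2-T22 and H2-D1 (1.28, adjusted p = 1.0e-05), and Nlrc5 and Tap1 (-1.13, adjusted p = 0.00334). Tap1 kept its call with each library left out. Nlrc5 lost it for 7 of the 8 libraries, H2-T22 for 4, H2-Q10 for 2 and H2-D1 for 1, Dux KD Zscan4 OE replicate 1 (1.0). With 1 library left out there were 1 to 5 calls, with 1 without Dux KD Zscan4 OE replicate 1, 2 without Dux KD RA replicate 2 and 3 without RA replicate 2.

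With the super-enhancer deleted, 10 of the 27 genes were called higher under RA and 12 were called lower under PlaB. In SE KO RA, H2-K1 was at 73.1 and 78.8 CPM against 33.7 and 33.3 CPM in RA, 2.26-fold higher (log2 fold change 1.18, SE 0.13, adjusted p = 5.3e-08). H2-Q7 was at 58 and 62.9 CPM against 20.5 and 20.9 CPM (log2 fold change 1.55, adjusted p = 2.2e-08), H2-Q6 at 18.1 and 18.5 against 5.64 and 6.29 CPM (1.62, adjusted p = 3.1e-07), and H2-Q2 at 11 and 10.9 against 2.42 and 2.52 CPM (2.15, adjusted p = 5.4e-07). Tap1 rose from 10.2 and 10.8 to 26.3 and 27.3 CPM (1.36, adjusted p = 2.0e-08), and Tap2 from 0.441 and 0.838 to 5.4 and 4.4 CPM (2.93, SE 0.39, adjusted p = 7.8e-07). The libraries of the 2 groups did not overlap for any of these. B2m (56.5 and 58.5 against 34.9 and 43.7 CPM, 0.55, adjusted p = 0.00357), Tapbp (22.2 and 22.6 against 14.3 and 13.6 CPM, 0.69, adjusted p = 1.1e-04), Psmb9 (0.75, adjusted p = 0.0126) and H2-D1 (36.5 and 32.8 against 27.8 and 27.7 CPM, 0.32, adjusted p = 0.0338) were higher in both libraries but under the size for a call. Nlrc5 was not called and lay lower, at 1.02 and 1.1 against 1.59 and 1.58 CPM (-0.57, adjusted p = 0.105).

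The class II chaperone H2-DMa rose by 1.60 in SE KO RA (18.4 and 18.6 against 5.33 and 6.89 CPM, adjusted p = 1.5e-07). H2-M5 fell by 1.42 to 8.28 and 6.52 CPM (adjusted p = 3.1e-10), its lowest level in the series. H2-DMb1 (2.25), H2-Q5 (1.70) and H2-T-ps (1.5) were called with all libraries. H2-DMb1 lost its call without SE KO RA replicate 2 (1.65, adjusted p = 0.0611), H2-Q5 without that library (1.55, adjusted p = 0.0897) or RA replicate 1 (1.29, adjusted p = 0.158), and H2-T-ps without RA replicate 2 (1.07, adjusted p = 0.175) or SE KO RA replicate 1 (1.41, adjusted p = 0.0804). In SE KO RA 1 gene, H2-M5, was called lower, where 6.57% of all tested genes were called higher and 11.0% lower. The median was 0.81 against -0.04 over all tested genes, and 18 were called without the threshold on size. Without SE KO RA replicate 1, whose genotype label goes against its title, 9 were called higher and 1 lower, with H2-K1 at 1.24, H2-Q7 at 1.61, Tap1 at 1.39, H2-Q2 at 2.14 and Tap2 at 2.78. The summed markers of the 2-cell-like state were at 51 to 54 CPM in SE KO RA and 463 to 535 CPM in RA. Pdgfrb, a marker of fibroblast-like cells, was at 111 and 104 CPM against 55.7 and 61.1 CPM, and Col1a1 at 23.9 and 21.9 CPM against 7 and 9.64 CPM. Other markers of that list did not rise with them. Of its 8 genes, 4 were over the floor in SE KO RA and 6 in RA, and 3 and 1 had no counts. Their part in the result was not tested.

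In SE KO PlaB the direction was opposite. The 2 libraries of this group had the highest chi-square per degree of freedom between replicates in the series (30.2). H2-K1 was at 4.47 and 5.04 CPM against 17.1 and 17.5 CPM, 3.64-fold lower (log2 fold change -1.87, SE 0.16, adjusted p = 7.3e-11). Tap2 was at 0.52 and 0.466 against 6.54 and 5.76 CPM, 12.3-fold lower (-3.62, SE 0.40, adjusted p = 7.0e-09). H2-M3 fell by 2.99 (1.6 and 1.54 against 12.6 and 12.4 CPM, adjusted p = 1.7e-11), and Psmb9 by 2.05 (1.56 and 2.7 against 7.94 and 9.67 CPM, adjusted p = 1.2e-08). H2-DMa fell by 2.38, and H2-DMb1 had 2 counts against 95 (ratio of PlaB to SE KO PlaB 49.5, 95% exact interval 13.3 to 415, adjusted p = 1.3e-07). H2-T24 fell by 4.41 (8 and 1 counts against 106 and 81, adjusted p = 5.2e-06), and H2-Q1 had 4 counts against 63 (16.4, interval 6.1 to 62.1). H2-D1 was lower by 1.0, just under the size for a call (18.2 and 20.8 against 39.3 and 38.7 CPM, adjusted p = 4.8e-08), as were Tap1 (11.5 and 12.5 CPM, -0.86, adjusted p = 6.3e-06), Nlrc5 (-0.72, adjusted p = 0.00907), Tapbp (-0.54, adjusted p = 5.0e-04) and B2m (10.6 and 13.2 CPM, -0.41, adjusted p = 0.0295). H2-M5 rose by 1.11 to 42.1 and 44.3 CPM (adjusted p = 2.9e-10), a call lost at 0.99 under each of the other scalings (DESeq2's size factors in edgeR, library size alone and DESeq2). H2-T-ps lost its call without SE KO PlaB replicate 1 (-1.83, adjusted p = 0.0501). H2-M5 was the 1 gene called higher, where 25.9% of all tested genes were called higher and 26.1% lower, with a median of -1.21, or -1.19 with zero-count genes at their bound, against -0.07.

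Under Dux OE, deletion of the super-enhancer gave 0 calls among the 27 genes by edgeR and 0 by DESeq2, where 2.46% of all tested genes were called higher and 3.84% lower. At an unadjusted p under 0.05 there were 7, and 5 had an adjusted p under 0.05 without the size for a call. H2-D1 was at 17 and 20.7 CPM against 10.8 and 11.8 CPM (0.74, adjusted p = 2.3e-04), H2-M5 at 23.3 and 23.7 against 14.9 and 13.7 CPM (0.72, adjusted p = 4.1e-05), and H2-K1 at 16.4 and 15.5 against 9.41 and 12 CPM (0.57, adjusted p = 0.00721). Tapbp was higher by 0.46 (adjusted p = 0.0211). Tap1 was lower, at 2.6 and 2.75 against 3.65 and 4.53 CPM (-0.62, adjusted p = 0.0199). The median was 0.46, or 0.39 with zero-count genes at their bound, against -0.02.

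The difference between the effects of SE KO in PlaB and in RA was called for 19 of the 27 genes, 1 higher and 18 lower, where 28.3% of all tested genes were called higher and 20.7% lower, with a median of -2.25 against 0.16. Tap2 had the largest difference among the genes with no group at the floor, at -6.55 (SE 0.56, adjusted p = 5.9e-11). H2-K1 differed by -3.04 (SE 0.21, adjusted p = 7.7e-13), H2-M3 by -3.57 (adjusted p = 4.2e-10), Psmb9 by -2.80 (adjusted p = 3.7e-08), Tap1 by -2.22 (adjusted p = 2.3e-10) and H2-D1 by -1.32 (adjusted p = 1.8e-07). H2-M5 differed by 2.53 (adjusted p = 9.0e-14), the only difference called higher among the 27. B2m (-0.96, adjusted p = 5.0e-04) was under the size for a call, and Nlrc5 (-0.14, adjusted p = 0.767), H2-T22 (0.12, adjusted p = 0.847) and H2-Q4 (-0.46, adjusted p = 0.25) were not called. Without SE KO RA replicate 1, 16 were called, 1 higher and 15 lower, and H2-T24 (-2.64, adjusted p = 0.428) and Psmb8 were among those lost. Between Dux OE and RA, 2 were called higher and 4 lower, where 12.1% of all tested genes were called higher and 8.75% lower, with a median of -0.51 against 0.07. H2-M5 (2.14, adjusted p = 1.1e-10) and H2-M6-ps (1.11) were higher, and Tap1 (-1.97, adjusted p = 3.1e-07), H2-DMa (-1.78), H2-Q7 (-1.33, adjusted p = 0.00208) and Tap2 (-2.39, adjusted p = 0.0462) lower. Without SE KO RA replicate 1, 5 were called, 1 higher and 4 lower. H2-M6-ps lost its call without SE KO RA replicate 1 (0.83, adjusted p = 0.135), Dux OE replicate 1, RA replicate 2 or SE KO Dux OE replicate 2, Tap2 without SE KO RA replicate 1 (-2.24, adjusted p = 0.0793), RA replicate 1, SE KO Dux OE replicate 1 or either Dux OE library, and H2-Q7 without Dux OE replicate 2 (-0.88, adjusted p = 0.127).

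**Figure D4:**
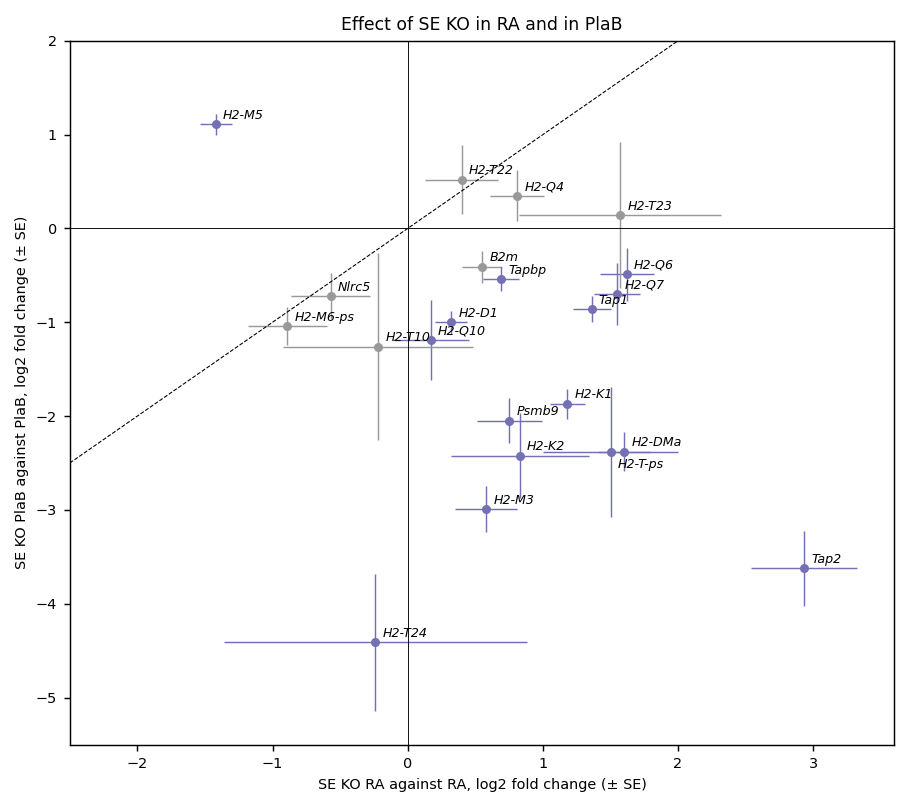
Log2 fold change with SE KO in PlaB (y axis) against that in RA (x axis) for 22 genes with counts over the floor, with bars of 1 SE and a dashed line where both effects are equal. The 15 genes in purple had a called difference between the effects; H2-K1 lies at 1.18 in RA and -1.87 in PlaB, and H2-M5 at -1.42 and 1.11.

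H2-M5, a nonclassical heavy chain gene on chromosome 17 (36984061 to 36989537), went against the rest of the family in several comparisons. It fell with Dux OE (-1.62) and DuxR70A OE (-1.47) and in SE KO RA (-1.42). It rose in Dux KD RA (1.42) and, at the size for a call, in Dux KD Zscan4 OE (1.06) and SE KO PlaB (1.11). Of these, the SE KO PlaB call was lost with DESeq2's size factors in edgeR, library size alone and DESeq2 (0.99 in each), and the Dux KD Zscan4 OE call with library size alone (0.98), without the filter (1.0) and without Dux KD Zscan4 OE replicate 2 (0.98). In RA and PlaB it stood at 19.6 and 19.9 CPM and at 19.3 and 20.6 CPM against 33.1 and 33.8 CPM in DMSO (-0.76 and -0.74, adjusted p = 7.5e-07 and 5.6e-07), under the size for a call. Dux KD PlaB, at 21.4 and 18.8 CPM, did not differ detectably from PlaB (0.01, SE 0.11, adjusted p = 0.958). The pseudogene H2-M6-ps, at 36969195 to 36971396 on the same chromosome, was called in the same direction in Dux OE and Dux KD RA, and in the opposite direction in SE KO PlaB (-1.04), a call lost without the filter (-0.91), with only the groups compared (-0.95), and without PlaB replicate 2 (-0.99) or SE KO PlaB replicate 2 (-0.77). In PlaB it rose by 1.85 (20.2 and 21.9 against 5.79 and 5.92 CPM) and in Dux KD PlaB it fell by 2.26.

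The immunoproteasome genes Psmb8 and Psmb9 stayed far below Psmb5 and Psmb6, the constitutive subunits they can replace, whereas Psmb10 came near Psmb7 in PlaB. Over the group means, Psmb9 ran from 0.286 to 2.41 RPKM and Psmb8 from 0 to 0.311 RPKM, while Psmb5 ran from 61.9 to 128 RPKM, Psmb6 from 90.2 to 648 RPKM and Psmb7 from 25.3 to 63.6 RPKM. Psmb10, the other inducible subunit, ran from 4.24 to 19.6 RPKM. It fell in RA, from 23.9 and 25.3 CPM in DMSO to 6.43 and 8.29 CPM (log2 fold change -1.74, adjusted p = 6.3e-11), whereas Psmb8 rose there and Psmb9 was not called. Psmb8 had 27 and 20 counts in SE KO RA, 16 and 9 in RA, and at most 6 in any other library. In PlaB Psmb6 rose to 1290 and 1140 CPM from 183 and 171 CPM in DMSO (2.78, adjusted p = 6.5e-17) and Psmb7 fell (-1.33, adjusted p = 3.7e-14). Psmb10 was lower in SE KO PlaB (-1.92, adjusted p = 1.3e-12) and in Dux KD PlaB (-1.21, adjusted p = 8.4e-09), as was Psmb9.

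**Figure D5:**
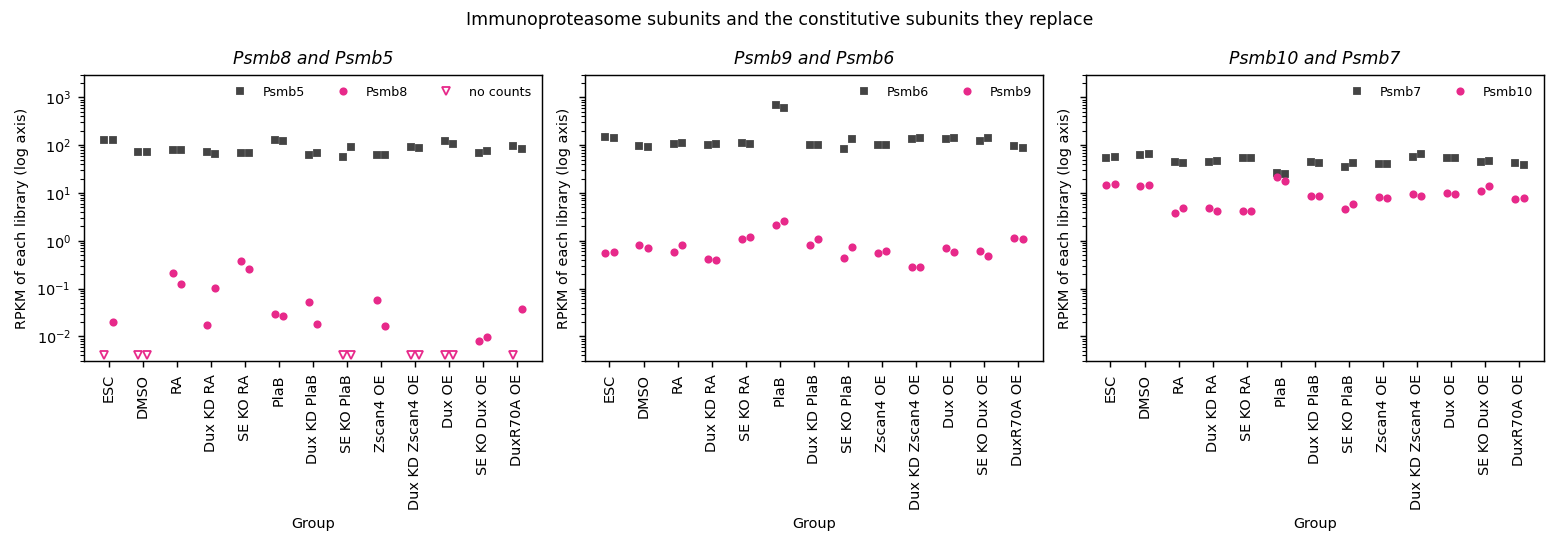
RPKM (log axis) of the constitutive proteasome subunits Psmb5, Psmb6 and Psmb7 (dark squares) and the inducible subunits Psmb8, Psmb9 and Psmb10 (pink circles), 1 point per library, by group; open triangles at the bottom of the axis mark libraries with no Psmb8 counts. The constitutive subunits lie above the inducible ones in every group, with Psmb6 at 648 RPKM on average in PlaB and Psmb9 at no more than 2.41 RPKM in any group.

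The wider pathway was described with gene lists. Of 23 tested interferon-stimulated genes outside the family, 16 were called higher and 1 lower in RA, beside 20.6% and 10.4% of all tested genes. The median log2 fold change was 3.84 against 0.10 for all genes. It was 1.59 without 1 gene at the floor in both groups and with 5 zero-count genes at their bound. Irgm1, an interferon-inducible GTPase, was at 5.15 and 5.78 CPM in RA and had 0 and 1 counts in DMSO. Oasl2, an antiviral oligoadenylate synthetase-like gene, had 216 and 176 counts against 2 and 1. In SE KO RA, where H2-K1 and Tap1 rose, 1 of the 23 was called higher and 10 lower (median -1.26), beside 6.57% and 11.0% of all genes. Irgm1 fell by 4.01 (0.419 and 0.254 CPM, adjusted p = 1.0e-09) and Oasl2 by 2.56 (adjusted p = 7.1e-06). In Dux KD RA 6 were called lower, beside 4.53% of all genes, with Oasl2 lower by 1.96 (adjusted p = 2.4e-04). In PlaB 15 were called higher and 3 lower, beside 32.3% and 26.6% of all genes, and in Dux KD PlaB 4 higher and 12 lower, beside 26.1% and 28.8%. With DuxR70A OE against ESC, 2 were called higher and 3 lower, beside 10.2% and 6.72% of all genes, with Irgm1 lower by 2.73 (adjusted p = 3.9e-05) and Irf1 lower by 1.18 (adjusted p = 1.5e-08).

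Of 22 tested transcription factors of class I genes, 6 were called higher and 2 lower in RA, beside 20.6% and 10.4% of all genes. Among them was Irf1 (1.48, adjusted p = 1.2e-10). In PlaB 2 were called higher and 9 lower, beside 32.3% and 26.6%, with Rfxap, a subunit of the RFX complex that binds MHC promoters, at 0.773 CPM on average against 14.3 CPM in DMSO (-4.20, adjusted p = 2.9e-16). In SE KO PlaB 11 were called higher and 3 lower, beside 25.9% and 26.1%, and Rfxap rose by 3.27 (adjusted p = 2.3e-13) while H2-K1 and Psmb9 fell. Of 18 tested genes of processing and loading outside the family, 2 were higher and 1 lower in RA, again beside 20.6% and 10.4% of all genes, led by the trimming peptidase Erap1 (3.38, 3.39 and 4.84 against 0.454 and 0.329 CPM, adjusted p = 1.0e-08). In PlaB 3 were higher and 7 lower, beside 32.3% and 26.6%: the tapasin-related Tapbpl rose by 3.62 (adjusted p = 3.4e-14) and the chaperone Calr fell by 2.65 (adjusted p = 9.6e-17). Erap1 fell in SE KO RA by 1.78 (adjusted p = 1.6e-05), unlike Tap1 and Tap2.

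Of 13 tested genes of interferon signalling, 5 were called higher in RA, beside 20.6% of all genes, and none in SE KO RA against RA by edgeR or DESeq2, where 3 were higher and 1 lower at an unadjusted p under 0.05. Of 11 tested class I-like genes outside the H2 prefix, 8 were called higher in RA, beside 20.6% of all genes. In SE KO RA 1 of them was called higher and 1 lower, beside 6.57% and 11.0% of all genes. Of 5 tested class II genes, 4 were higher in DuxR70A OE against ESC (10.2% of all genes) and 4 in PlaB (32.3%), and 5 were lower in Dux KD PlaB (28.8%). H2-Ab1, a class II beta chain, was at 0.353 CPM on average in ESC, 2.72 CPM in DuxR70A OE, 4.73 CPM in DMSO, 6 CPM in RA and 19.9 CPM in SE KO RA, where it rose by 1.73 against RA (adjusted p = 7.8e-07). Of 23 other ESC-expressed genes of the same region, 4 were called lower in RA, beside 10.4% of all genes, and 1 higher in SE KO RA, beside 6.57% (median 0.40 against -0.04 for all genes).

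H2-T23 was tested but stayed between 1 and 18 counts per library and was called in none of the comparisons. The 15 genes that did not pass the filter on low counts had at most 16 counts in any library. H2-M10.2 had 16 and 3 counts in PlaB and 0 in both DMSO libraries, H2-M10.6 had 8 and 2 there and H2-M10.3 had 7 and 0. H2-T3, the thymus leukemia antigen, had 4 and 11 counts in SE KO RA, 7 and 6 in PlaB and 4 and 8 in SE KO Dux OE. H2-Ke6 had 8 and 4 in SE KO RA, and H2-DMb2 had 5 and 0 in SE KO PlaB. H2-M10.4 and H2-M2 reached 4 counts in 1 library each, and H2-Q3, H2-M1, H2-M9, H2-M10.1, H2-M10.5, H2-M10.5-ps1 and H2-M11 had no more than 3 counts in any library. Differences in these 15 genes were not tested in the model reported here.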

How the data were processed

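Poly(A) RNA of R1 mouse ESCs was extracted with Trizol, made into NEBNext Ultra II libraries and sequenced. The deposited values are raw read counts per gene. The submitters' processing notes name FastQC, Trimmomatic, STAR, featureCounts and DESeq2 and the build mm10, without roles, and the strand and multi-mapping settings are not given in the sources used here. All 26 libraries entered 1 edgeR (version 4.0.16, R 4.3.3) quasi-likelihood model with 13 groups, TMM scaling and filterByExpr by group, which left 20953 of 55291 genes. Benjamini-Hochberg adjustment ran over all of these. A gene was called where the adjusted p was under 0.05 and the log2 fold change at least 1 in size, with a prior count of 0.125. The common biological coefficient of variation was 0.0833. RPKM used the gene lengths of the table. Differences between effects were contrasts of the same model.

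Total counts were 14401452 to 39402840 per library, so 3 counts equal 0.0796 to 0.226 CPM. A group with 0 counts was set at this floor per library to give a lower bound. Where a second median is given, it also leaves out genes at the floor in both groups. With 1 to 5 counts in a group, a 95% exact (Clopper-Pearson) interval of the ratio was given. The labels do not say whether replicates came from separate cultures, so p-values measure only the spread between these samples, which may be technical. Chi-square per degree of freedom between replicates was 1.55 to 30.2, and no library was counted as a duplicate. It was highest in SE KO PlaB (30.2), Dux KD Zscan4 OE (26.1) and SE KO Dux OE (9.81). The model shared the spread of a gene over all groups. The steps were tested on simulated data.

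Genes were named by symbol, with folds for up to 8 called genes per comparison plus B2m, H2-D1, H2-K1, Tap1, Tap2, Tapbp, Nlrc5, Psmb8 and Psmb9, and up to 3 called genes per pathway list. H2-M5 across all comparisons, Psmb10 and a few further genes were named after their values were seen. The members and lists were chosen with earlier results of these data known, and the motifs were chosen after the data were seen. Alternatives were DESeq2 (version 1.42.0), other scalings, no filter, no size threshold, only the groups compared, a replicate block, the other control and each library left out. All 42 genes had the start and end of GENCODE M21. Promoter sequences are RefSeq's (GRCm38.p6), and no protein sequences were used here.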

Additional observations from a re-analysis of the deposited data

Results flagged for a closer look

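Each value here is a difference, on the log2 scale, between the effects of 1 perturbation under 2 inducers, tested as a term of the edgeR model. It is given where the difference itself was called and no group behind it was at the floor. Groups of 2 libraries are too small to test for an outlying sample.

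For Dux KD, the effect in PlaB minus that in RA was -3.89 for H2-M6-ps, -3.16 for H2-M3, -2.82 for Tap2, -2.46 for Nlrc5, -1.84 for H2-Q6, -1.76 for H2-DMa, -1.42 for H2-M5, -1.34 for Tap1, -1.20 for Tapbp and -1.13 for H2-D1. It was positive for the Q genes H2-Q2 (3.21), H2-Q10 (2.08), H2-Q4 (1.90) and H2-Q7 (1.52) and for H2-T22 (1.60). Tap2 lost this call without Dux KD RA replicate 2 (-1.51, adjusted p = 0.254). H2-Q6 lost its call in some fits with 1 library left out. H2-Q1 and H2-T-ps were also called but had a group at the floor.

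The effect of Dux KD under Zscan4 OE minus that in RA was 1.66 for H2-Q10, 1.47 for H2-T22, 1.28 for H2-D1, -1.17 for Nlrc5 and -1.13 for Tap1. H2-Q10 stood at 0.22 without Dux KD Zscan4 OE replicate 1 (adjusted p = 0.865). Nlrc5 lost its call without any 1 of 7 libraries and H2-T22 without any 1 of 4.

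For SE KO, the effect in PlaB minus that in RA was -6.55 for Tap2, -4.17 for H2-T24, -3.98 for H2-DMa, -3.88 for H2-T-ps, -3.57 for H2-M3, -3.24 for H2-K2, -3.04 for H2-K1, -2.80 for Psmb9, -2.25 for H2-Q7, -2.22 for Tap1, -2.10 for H2-Q6, -1.36 for H2-Q10, -1.32 for H2-D1 and -1.23 for Tapbp, and 2.53 for H2-M5. H2-T24 and H2-Q10 lost their calls in some fits with 1 library left out. H2-DMb1, Psmb8, H2-Q1 and H2-Q2 were also called but had a group at the floor.

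The effect of SE KO under Dux OE minus that in RA was -2.39 for Tap2, -1.97 for Tap1, -1.78 for H2-DMa and -1.33 for H2-Q7, and 2.14 for H2-M5 and 1.11 for H2-M6-ps. Tap2, H2-Q7 and H2-M6-ps lost their calls in some fits with 1 library left out.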

How the results depend on the processing

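Of 17 counts of called genes, those that moved by more than 1.5 times did so as follows. With ESC in place of DMSO, RA had 20 calls in place of 12. With DMSO in place of ESC, Dux OE had 13 in place of 5 and DuxR70A OE 8 in place of 16. Without the threshold on size, Dux KD RA had 13 in place of 7, SE KO RA 18 in place of 11 and SE KO Dux OE 5 in place of 0. With only the groups compared in the fit, Dux KD Zscan4 OE had 5 in place of 9. With 1 library left out, counts ran from 11 to 14 in RA, 17 to 20 in PlaB, 6 to 7 in Zscan4 OE, 4 to 6 in Dux OE, 14 to 15 in DuxR70A OE against ESC, 10 to 13 against Dux OE, 7 to 8 in Dux KD RA, 16 to 18 in Dux KD PlaB, 5 to 9 in Dux KD Zscan4 OE, 10 to 11 in SE KO RA, 11 to 14 in SE KO PlaB, 0 to 1 in SE KO Dux OE (1 without SE KO Dux OE replicate 2) and 9 to 12 in DMSO against ESC. For the differences between effects they ran from 15 to 17 (Dux KD, PlaB minus RA), 1 to 5 (Dux KD, Zscan4 OE minus RA), 16 to 19 (SE KO, PlaB minus RA) and 5 to 8 (SE KO, Dux OE minus RA). A group left with 1 library was assumed to vary like the other groups.

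The other control turned the direction of 12 of the 60 called log2 fold changes of the inducer comparisons: H2-Q2 (1.27), H2-K1 (1.21), H2-Q10 (0.79) and H2-Q7 (0.49) in PlaB, H2-Q2 (-0.99), H2-Q6 (-1.11), Tap2 (-0.10) and H2-K2 (-0.28) in Zscan4 OE, H2-DMa (-0.21) in Dux OE, and H2-Q5 (-0.26), H2-K1 (-0.16) and H2-Q10 (-0.48) in DuxR70A OE. A further 15 lost their call. The split of calls moved from 15 higher and 5 lower to 16 and 1 in PlaB, and from 7 and 0 to 4 and 5 in Zscan4 OE. No other alternative turned a called value. Of all 189 called values, 186 kept their call with DESeq2's size factors in edgeR, 182 with library size alone, 179 without the filter on low counts, 179 with DESeq2 and 182 with only the groups compared, and 837 of 944 with 1 library left out. The cause of the lost calls was not tested.

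Same-numbered replicates did not deviate together (r from -0.0473 to 0.0237). This cannot show whether same-numbered samples were prepared together. With the replicate number as a block, 188 of the 189 called values kept their call. The exception was H2-Q1 for SE KO in PlaB minus RA (-2.88, adjusted p = 0.055), so that 18 in place of 19 genes were called there.

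Depth limited the genes near 3 counts per library, for which only bounds or counting intervals were given.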
